A study of Mus musculus with 8 samples.

Results

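The transcriptome of 4T1 tumors that grew in untreated mammary tissue was described from 4 tumors, which are 4 of the 8 samples of the series. They were chosen by title, as the tumors without the IRR prefix. In each case 4T1 cells, an established line of mouse mammary carcinoma from the BALB/c strain, were injected orthotopically into BALB/c mice, the fourth mammary gland had not been irradiated, and the tumor was grown for 18 days. The other 4 tumors grew in glands that had received 20 Gy of X-rays before the injection. They entered only the choice of 1 probe set per gene, and no comparison with them was made. All 4 tumors described here thus share 1 line, 1 host strain, 1 implantation site and 1 time of growth, and the labels give neither the sex nor the age of the mice, nor do they say that each tumor came from its own mouse. Whole tumor tissue was homogenized, and total RNA was hybridized to Affymetrix Mouse Gene 1.0 ST arrays, with 1 array per tumor.

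4T1 tumors are a common model of aggressive, metastasizing breast cancer. The cells keep epithelial keratins and junctions, carry mesenchymal genes as well, and are known for secreting granulocyte colony-stimulating factor, which drives the expansion of neutrophils and related myeloid cells in the host. A tumor of this kind contains carcinoma cells, fibroblasts with their collagenous matrix, blood vessels, macrophages, neutrophils and lymphocytes, and a piece of tissue can also hold fat, muscle, skin or the lymph node of the mammary gland. The RNA of all these cells is summed in 1 homogenate, so a lower signal from fewer cells of a type and from less RNA per cell cannot be told apart.

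Values are log2 signals after robust multi-array averaging (RMA), on which a step of 1.0 is a factor of 2.0. Where 4 values stand in a row they belong to tumors 1, 2, 3 and 4 as the titles number them, and the numbers carry no order. The table gave 1 value per tumor for 19937 genes. Probe sets respond differently to the same amount of RNA, so the percentile printed for a gene places its mean signal among the 19937 genes on these arrays and does not rank amounts of RNA. As a level of weak or absent transcripts, the 95th percentile of 1027 olfactory receptor genes was taken, which was 5.47 and is called the reference level. The means of 13569 genes, 68.1% of all, lay above it, and the median of all genes was 6.59. The arrays were alike in their medians over all probe sets, from 5.94 to 5.98, and in the genes above the reference level, from 13314 to 13801. Among 14043 genes, 70.4%, above it in at least 1 tumor the median SD over the 4 tumors was 0.089, 69 genes, 0.491%, had an SD over 0.5, and 91 genes, 0.648%, had a range over 1.0. Tumor 4 was high for hair, skin and some lymph node genes, tumor 2 was low for granzymes and tumor 3 was high for neutrophil genes, and the values are given with the genes below. Liver, neuron and testis lists served as checks and had medians of 5.22, 5.47 and 5.12. Of their measured members, 3 of 10, 4 of 7 and 3 of 8 had means above the reference level. A mean above that level thus does not by itself show that a gene is expressed. None of the 3 measured Y-linked genes was above it.

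The named gene with the highest mean signal was Eef1a1, the elongation factor that delivers transfer RNA to the ribosome, which read 13.50, 13.50, 13.45 and 13.52. Next among the 15 highest named genes were Actb, cytoplasmic actin (13.34 ± 0.020, SD, n = 4), and Lgals1, a secreted galectin (13.14 ± 0.014). The ribosomal proteins Rplp1, Rps18 and Rpl9, the translation factors Eif4a1 and Eef2, the ferritin chain Fth1, thioredoxin (Txn1), the histone gene H4c4, the channel gene Kcnma1 and Tpt1 all had means between 12.83 and 13.11. For genes with several probe sets the highest was used, and with the median over them Kcnma1 fell by 3.92 on the log2 scale. By that median Rps18 stood at 11.57, Rpl9 at 11.74, Rplp1 at 12.50 and Eif4a1 at 12.54. A pair of genes in this group are linked to mesenchymal cells and matrix, namely Fn1, fibronectin, at 13.03, 13.04, 13.06 and 13.18, and Vim, the intermediate filament vimentin, at 13.06, 13.04, 12.98 and 13.07. At the other end of the spread, 5 genes above the reference level in all tumors had the smallest SDs: the collagen receptor Ddr2 (10.47, SD 0.0014), Thnsl1, the mitochondrial carrier Slc25a28, the BMP antagonist Chrd and Rpn2, a subunit of the oligosaccharyltransferase.

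Genes of luminal epithelium, the keratins, junction proteins and proteases of simple epithelia, were strongly represented. Of 22 measured members 21 lay above the reference level, against 68.1% of all genes, and 13 lay above 8.58, the 75th percentile of all genes. Krt8 and Krt18, the keratin pair of simple epithelia, read 12.45, 12.52, 12.55 and 12.57 and 11.80, 11.88, 11.89 and 12.03. These were percentiles 99.8 and 99.4. The adhesion molecule Epcam read 9.44, 9.34, 9.07 and 9.51, and Cdh1, E-cadherin, read 9.63, 9.74, 9.35 and 9.72. For both of these genes the lowest value was in tumor 3, and the SDs were 0.19 and 0.18. Cd24a, a surface glycoprotein of epithelial cells and some leukocytes, had a mean of 11.40, the desmosome and adherens junction protein Jup 11.06, and the tight junction protein Cldn4 10.96. The largest SD of the list was that of the desmosome protein Dsp, at 8.34, 8.66, 8.41 and 9.11. Next came Rab25, a vesicle transport GTPase of epithelia, at 7.93, 7.45, 7.21 and 7.28, and the tight junction protein Ocln at 7.33, 7.36, 7.38 and 7.92. Ehf, an epithelial transcription factor, was the 1 member below the reference level, with a mean of 5.26.

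Mesenchymal transition genes were present beside these epithelial genes, with 9 of 10 members above the reference level, against 68.1% of all genes. The RNA came from whole tumors, so these signals do not separate carcinoma cells from stromal cells. The transcription factors that repress E-cadherin differed in signal. Snai1 read 9.83, 9.99, 10.10 and 9.98, Zeb1 read 7.74, 7.81, 7.79 and 7.83, and Zeb2, which macrophages also express, had a mean of 8.90. Twist1 averaged 8.36, Foxc2, a forkhead factor, 9.05 and Snai2 6.07. Cdh2, N-cadherin, lay below the reference level in every tumor, at 4.80, 4.96, 4.85 and 4.91. These 10 genes varied little, with a median SD of 0.070 against 0.089 for genes above the reference level in at least 1 tumor.

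Basal epithelial genes were mostly weak, apart from the laminin receptor integrin. Itgb4 and Itga6, its subunits, averaged 11.04 ± 0.052 and 10.67 ± 0.12. Trp63, the transcription factor of basal cells, read 6.09, 6.24, 6.19 and 6.26. The laminin chain Lamb3 had a mean of 7.43, and 14-3-3 sigma (Sfn) 8.01. The 3 basal keratins with the largest SDs were higher in tumor 4 than in the others. Krt14 read 6.39, 6.71, 6.79 and 7.56, Krt5 read 5.42, 5.60, 5.57 and 7.37, and Krt17 read 5.61, 5.85, 6.30 and 7.31. All 13 measured members of the list were highest in tumor 4, where 24.8% of all genes were. Over all 13 members the list's mean was 6.77, 6.84, 6.89 and 7.34, so tumor 4 lay 0.51 above the mean of the others. Among the 12 members above the reference level in at least 1 tumor that difference was 0.54 by the mean and 1.22 by the median. Keratins of this list are also made by skin and hair follicles, and the skin and hair genes of tumor 4 are given below. Their part in the basal values was not tested.

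Hormone receptors and milk genes gave a mixed picture. Esr1, the estrogen receptor, read 8.26, 8.35, 8.31 and 8.27 and lay at percentile 70.8, while Pgr, the progesterone receptor, was below the reference level at 5.17, 5.30, 5.24 and 5.21. Erbb2, the receptor tyrosine kinase also called HER2, averaged 8.83 ± 0.085. Gata3, a transcription factor of luminal cells and of lymphocytes, had a mean of 10.62 ± 0.043, at percentile 96.0. The luminal factors Foxa1 (5.66) and Elf5 (5.50), the caseins Csn1s1 (4.85), Csn2 (5.03) and Csn3 (5.46) and the whey protein Wap (5.86) lay between 4.85 and 5.86, around the reference level.

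Proliferation genes had high signals in all 4 tumors, with 22 of 22 members above the reference level and 19 above the 75th percentile. Mki67, the antigen used to mark cycling cells, read 10.57, 10.05, 10.20 and 10.18, and Top2a, the topoisomerase that untangles chromosomes, read 10.69, 10.17, 10.26 and 10.20. Pcna, the sliding clamp of DNA polymerase, had a mean of 11.23, the mitotic kinase Cdk1 10.70 and its cyclin Ccna2 10.50. The probe sets of Top2a disagreed, and their median gave a mean of 7.33 in place of 10.33. Every one of the 22 genes was highest in tumor 1, where 25.1% of genes above the reference level in at least 1 tumor had their highest value. The list means were 9.77, 9.44, 9.54 and 9.44, so tumor 1 lay 0.29 above the mean of the others. The checkpoint kinase Bub1 had the largest SD, at 8.66, 7.83, 8.40 and 8.33, and its lowest value was in tumor 2. Of p53 and its targets, 10 of 13 listed genes were measured, and Trp53, Cdkn1a and Bax were not. Mdm2, the ubiquitin ligase that degrades p53, read 8.70, 8.64, 8.87 and 8.70, Ccng1, a p53-induced cyclin, averaged 10.33, Phlda3 8.18, and Cdkn2a, the tumor suppressor locus of p16 and p19Arf, 6.31. Trp53inp1, a p53-induced nuclear protein, had the largest SD, at 8.14, 8.26, 8.20 and 8.71. Eda2r, a receptor of the tumor necrosis factor family, was below the reference level at 4.96.

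Hypoxia and glycolysis genes were all above the reference level (17 of 17), with a median of 10.76 at percentile 96.8. Ldha, lactate dehydrogenase, read 12.32, 12.26, 12.52 and 12.42, and Slc2a1, the glucose transporter GLUT1, read 11.41, 11.34, 11.67 and 11.87. Car9, a carbonic anhydrase induced under low oxygen, read 9.90, 9.91, 10.40 and 10.38. In all of these tumors 3 and 4 lay above tumors 1 and 2. The same order held for the oxidoreductase Ero1a (10.52, 10.30, 11.23 and 11.01), the vasodilator peptide Adm (7.43, 7.60, 8.30 and 8.31) and Ndrg1 (11.28, 11.44, 11.81 and 11.98). Over the list, tumor 3 was highest for 10 members and tumor 4 for 6, and the lowest value was always in tumor 2 (10 members) or tumor 1 (7 members). Of all genes above the reference level in at least 1 tumor, 20.0% and 26.3% were highest in tumors 3 and 4, and 28.2% and 32.5% were lowest in tumors 2 and 1. List means were 10.22, 10.19, 10.54 and 10.52.

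Fibroblast and matrix genes were present at high signals, with 22 of 23 above the reference level and 16 above the 75th percentile. Besides Fn1, the matricellular protein Sparc averaged 12.63 ± 0.027. Col1a1, a chain of fibrillar type I collagen, read 11.27, 11.43, 11.44 and 11.24, Col3a1 read 9.19, 9.62, 9.60 and 9.33, and Pdgfra, a receptor for platelet-derived growth factor on fibroblasts, read 9.71, 9.88, 9.98 and 10.03. For Col3a1 the highest and lowest tumor differed by 0.44. The largest SDs of the list were those of Lox, the enzyme that crosslinks collagen (8.28, 8.54, 9.30 and 8.64), of the proteoglycan Lum (7.06, 7.83, 7.71 and 7.72) and of Dpt, dermatopontin (5.45, 5.86, 6.17 and 5.85). Tumor 1 had the lowest value of 17 of the 23 members, against 35.7% of all genes. Fap, fibroblast activation protein, was close to the reference level, at 5.47, 5.58, 5.68 and 5.49, and the proteoglycan Ogn was below it, with a mean of 5.07.

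Perivascular and vessel genes were all above the reference level. Among 13 genes of pericytes and smooth muscle, Acta2, smooth muscle actin, averaged 10.04 ± 0.092, Pdgfrb, the receptor that recruits pericytes, 9.04 ± 0.12, the adhesion molecule Mcam 10.34, and Rgs5, a regulator of G-protein signalling in pericytes, read 8.58, 8.82, 8.08 and 8.40. Of 22 genes of blood endothelium, Cdh5, VE-cadherin, read 10.18, 10.41, 10.25 and 10.55, Pecam1, the junction molecule CD31, read 8.97, 9.09, 8.96 and 9.10, and Kdr, the main VEGF receptor, read 7.79, 7.98, 7.86 and 7.87. Eng, a co-receptor for TGF-beta, averaged 11.12 with an SD of 0.021. More spread was seen for Esm1, a marker of sprouting tip cells (6.19, 6.76, 6.33 and 6.15), and the transcription factor Sox18 (9.06, 9.60, 9.17 and 9.10), and both were highest in tumor 2. Tumor 2 had the highest value of 13 of the 22 endothelial genes, against 28.7% of genes above the reference level in at least 1 tumor. The list mean of tumor 2 was 0.18 above that of the others, and the median of the members 0.28 above.

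Lymphatic endothelium was represented unevenly. Prox1, the transcription factor that specifies lymphatic identity, was below the reference level in all tumors, at 5.18, 5.11, 5.13 and 5.19. Lyve1, a hyaluronan receptor of lymphatic vessels and of some macrophages, read 6.89, 7.62, 7.97 and 8.02, and was lowest in tumor 1. Flt4, the lymphatic VEGF receptor, had a mean of 6.48, and podoplanin (Pdpn), which fibroblasts and carcinoma cells can also carry, read 8.33, 8.56, 9.04 and 8.35. Mmrn1 and Reln were below the reference level, at 4.77 and 5.22.

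Genes of fat and muscle, tissues that surround the mammary gland, had list medians of 6.74 and 5.73, against 6.59 for all genes. Of 15 adipocyte genes 13 had means above the reference level, but Adipoq, the hormone that defines fat cells, had a mean of 5.47 and was above the level in tumor 2 alone, at 5.36, 5.77, 5.36 and 5.38. Plin1, the coat protein of fat droplets, read 5.85, 6.26, 5.93 and 5.95, and Fabp4, a fatty acid carrier that endothelium and macrophages also express, read 7.93, 8.59, 7.87 and 7.77. The highest values were in tumor 2 for 13 of the 15 measured members, where 33.7% of all genes had theirs. The largest SD was that of Car3, an enzyme of adipose tissue that hydrates carbon dioxide, at 7.65, 8.41, 6.56 and 7.15. Scd1 and Pnpla2, enzymes of lipid synthesis and breakdown found in many cells, averaged 10.14 and 9.69. In the skeletal muscle list Acta1, muscle actin, read 7.08, 7.57, 7.22 and 7.60, Ckm, muscle creatine kinase, 6.32, 7.04, 6.62 and 6.56, and Myh4, a fast myosin, 5.78, 6.05, 5.90 and 5.95. The highest means of this list were those of Eno3, at 10.22, and of Tnni2, which read 8.06, 8.57, 8.19 and 7.90. Again 13 of 19 measured members were highest in tumor 2. Liver genes, which are not a tissue of this site, were also highest in tumor 2 for 8 of 10 measured members, with means of 5.32, 5.43, 5.33 and 5.37 over all 10. What that shift of weak signals adds to the fat, muscle and vessel values of tumor 2 was not tested.

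**Figure D1:**
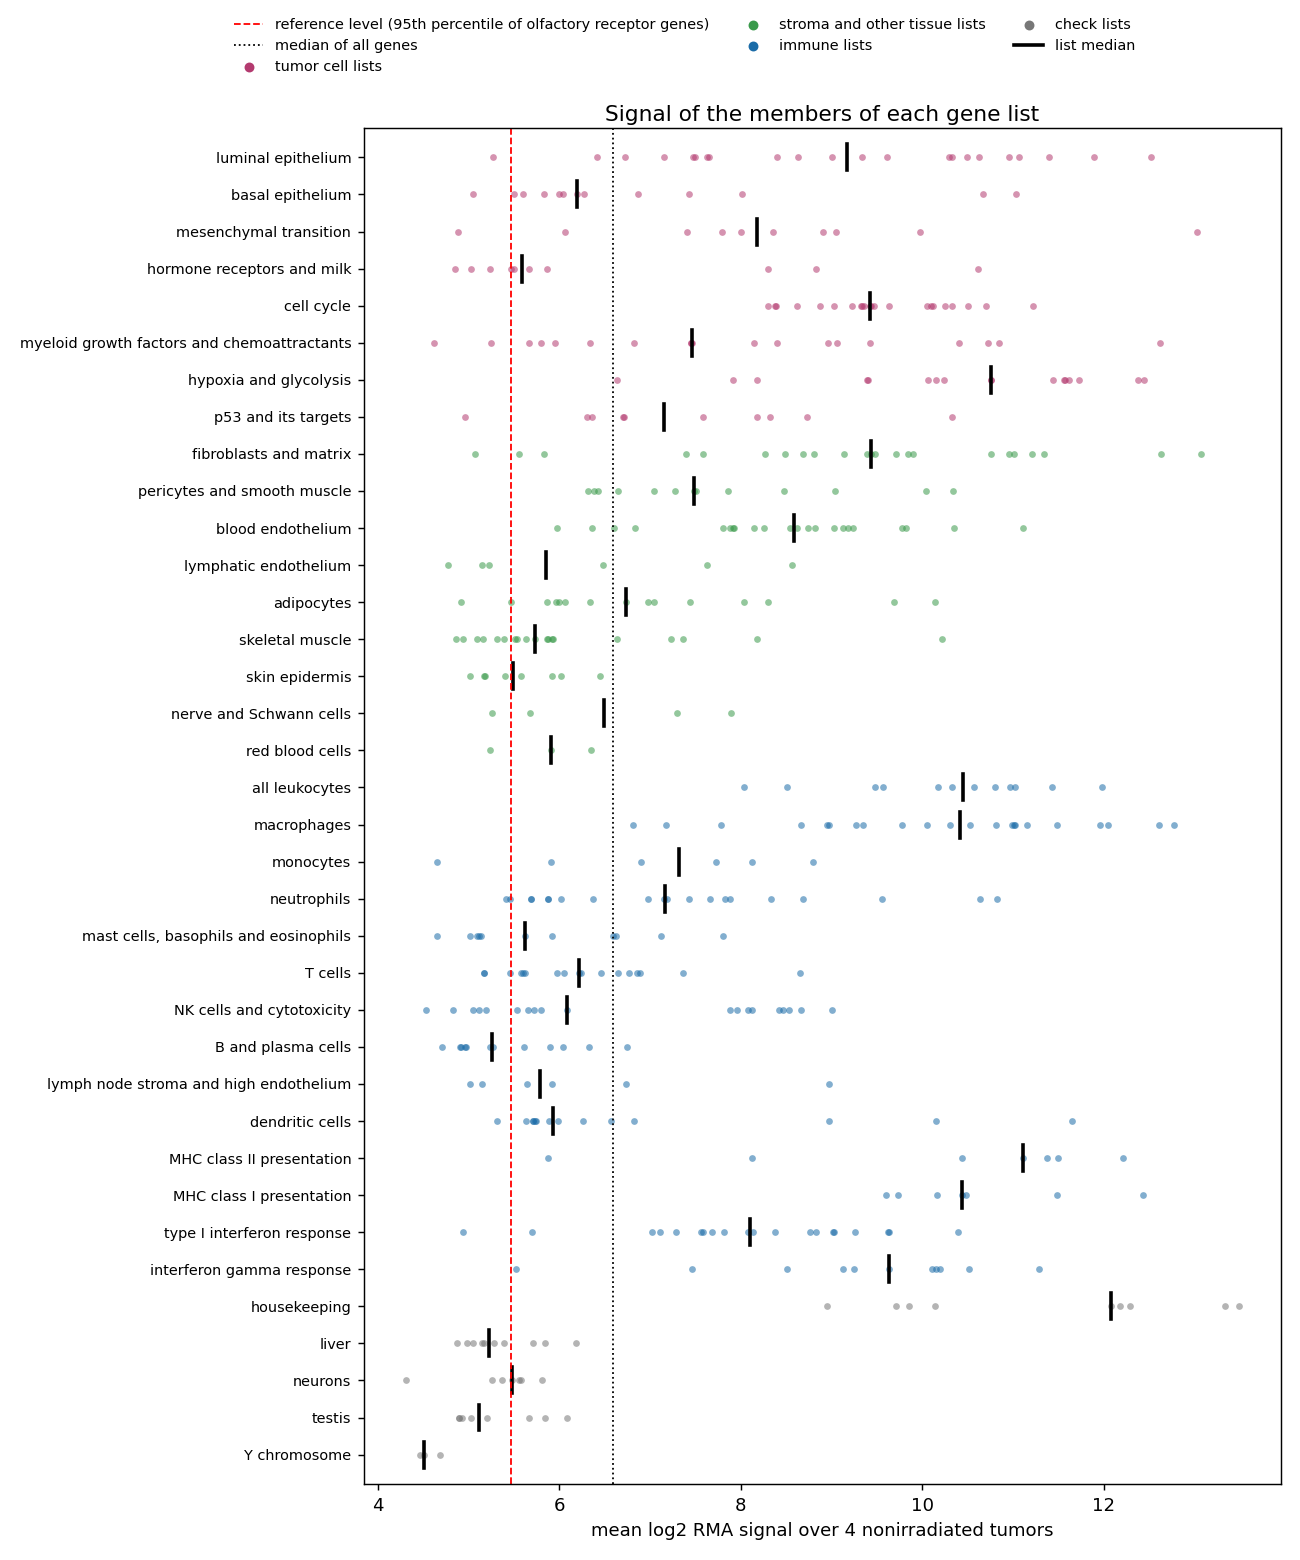
Each point is the mean log2 RMA signal of 1 gene over the 4 nonirradiated tumors (horizontal axis), in rows by gene list and coloured by kind of list, with the list median as a black bar. The medians of leukocyte, macrophage, MHC class I and II and hypoxia lists lie between 10.42 and 11.12, those of T, NK and B cell lists between 5.25 and 6.22, and those of the liver, neuron and testis lists between 5.12 and 5.47.

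Leukocyte genes were strongly represented. All 12 general leukocyte genes were above the reference level and 10 above the 75th percentile, with a median of 10.45. Ptprc, the phosphatase CD45 of all leukocytes, read 9.64, 9.41, 9.38 and 9.50, Itgb2, the common chain of leukocyte integrins, 10.81, 10.67, 10.87 and 10.85, and the lysosomal protein Laptm5 12.07, 11.94, 11.94 and 11.99. The 12 genes had a median SD of 0.085. Tumor 1 was highest for 9 of the 12, against 25.1% of genes above the reference level in at least 1 tumor.

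Macrophage genes accounted for many of the high immune signals, with 22 of 22 above the reference level and 19 above the 75th percentile. Csf1r, the receptor for the main macrophage growth factor, read 11.11, 11.05, 10.81 and 11.12, Adgre1, the surface antigen F4/80, 9.66, 9.47, 8.99 and 9.29, and Cd68, a lysosomal glycoprotein, 10.92, 11.00, 10.98 and 11.04. Lyz2, lysozyme, averaged 12.78 ± 0.064, Apoe, a lipid carrier, 12.61 ± 0.14, and C1qc, a chain of complement C1q, 12.05 ± 0.083. Arg1, the arginase of alternatively activated macrophages, read 9.96, 9.89, 10.31 and 10.07, and Mrc1, the mannose receptor, 10.44, 10.62, 10.42 and 10.64. Tumor 3 had the lowest value of 13 of the 22 genes, against 16.8% of genes above the reference level in at least 1 tumor. The shift was small, since the list mean of tumor 3 lay 0.089 below that of the others. The largest SDs were those of the haemoglobin receptor Cd163 (6.78, 7.40, 7.46 and 7.05), of Adgre1, and of Fcgr1, a receptor for immunoglobulin G (10.06, 9.84, 9.64 and 9.57). The folate receptor gene Folr2, with an SD like that of Fcgr1, read 8.99, 9.31, 9.25 and 9.52.

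Among monocyte genes Ccr2, the receptor that brings monocytes out of the marrow, read 9.37, 8.82, 8.53 and 8.46. Plac8, a gene of inflammatory monocytes and lymphocytes, read 8.59, 8.17, 8.40 and 7.34, and its value in tumor 4 was 1.05 below the mean of the other 3. Chil3, a lectin of activated macrophages, was below the reference level at 4.65. Fcrls, a gene for an Fc receptor-like protein of macrophages, was not in any list and was among the 25 named genes with the largest SDs, at 6.87, 8.15, 8.06 and 8.88, a 4.02-fold range with the lowest signal in tumor 1.

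Dendritic cell genes were near the reference level, apart from genes shared with other cells. Flt3, the receptor that maintains dendritic cells, read 5.86, 6.01, 5.88 and 5.77, Zbtb46, their lineage factor, 6.09, 6.49, 6.26 and 6.21, and Clec9a, a receptor for dead cells, 5.95, 5.67, 5.47 and 5.42. Fscn1, an actin bundler that carcinoma cells also make, averaged 11.65, Irf8 10.16 and the integrin Itgax 8.97. Mast cell and basophil genes were weak too. Cpa3, a mast cell protease, averaged 5.92, Fcer1a, the IgE receptor chain, 5.11, and Hdc, which makes histamine, read 6.96, 6.87, 7.51 and 7.12.

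Of the factors that act on myeloid cells, 17 of 19 measured genes lay above the reference level. Csf1, the macrophage growth factor, averaged 10.41 ± 0.071 and Csf3, the granulocyte factor, read 7.23, 7.21, 7.95 and 7.43. Csf2, which acts on both lineages, and Il6 were below the reference level in all tumors, at 5.26, 5.36, 5.27 and 5.08 and at 4.67, 4.55, 4.69 and 4.57. Lcn2, an iron-binding protein of neutrophils and inflamed epithelium, averaged 12.62 ± 0.15, and the growth factors Tgfb3 and Tgfb1 averaged 10.84 and 10.73. Kitl, the ligand of the receptor Kit, read 9.25, 9.10, 8.82 and 9.08, and Kit itself read 7.64, 7.89, 7.75 and 7.95. The publication titles cited with the series also name Ccn1 (Cyr61), a matricellular protein that read 10.25, 10.18, 10.65 and 10.28, and the integrin chains Itgav, at 10.20 ± 0.15, and Itgb5, at 11.43 ± 0.10. The neutrophil chemoattractant Cxcl2 had the largest SD of the list, at 6.08, 6.40, 7.88 and 6.91, and Saa3, an acute-phase protein, read 7.92, 8.20, 9.15 and 8.33. Cxcl5, another neutrophil attractant, read 5.47, 5.38, 6.26 and 6.09. Tumor 3 was highest for 12 of the 19 measured factors, where 20.5% of all genes had their highest value.

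Most neutrophil genes were highest in the same tumor. S100a9 and S100a8, the subunits of calprotectin, read 8.25, 8.23, 9.66 and 8.60 and 7.33, 7.38, 8.63 and 7.94. Cxcr2, the receptor for Cxcl2, read 6.50, 6.32, 7.89 and 7.21, and Retnlg, a resistin-like gene of neutrophils, read 6.67, 6.47, 8.12 and 7.50. Tumor 3 was highest for 16 of the 20 measured members, against 20.5% of all genes, and its list mean was 0.62 above that of the others (7.12, 7.03, 7.79 and 7.37). With the median of the members in place of their mean, that difference was 1.04. Ly6g, the surface marker of mature mouse neutrophils, was above the reference level in tumor 3 alone, at 5.31, 5.20, 5.92 and 5.20, and Mmp8, a collagenase of their granules, read 5.39, 5.13, 6.48 and 5.76. The cytokine gene Il1b, made by many myeloid cells, read 9.59, 9.09, 10.05 and 9.50. The gelatinase Mmp9 averaged 10.82 and the protease inhibitor Slpi 10.64, and both also come from carcinoma cells. The granule genes of neutrophil precursors Elane and Mpo averaged 5.69 and 5.46, and Camp, also in the list, 5.87. These 3 members were highest in tumor 2, and 1 further member was highest in tumor 4. Ngp and Ltf, further members, read 7.99, 7.69, 8.28 and 7.55 and 6.31, 6.31, 6.64 and 6.23. Both were highest in tumor 3. Among genes with an SD over 0.5 chosen after their values were seen, Il1r2, a decoy receptor for interleukin 1, and Nos2, inducible nitric oxide synthase, were also highest in tumor 3, at 6.81, 6.94, 8.19 and 7.78 and at 7.89, 7.63, 9.17 and 8.26.

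T cell genes lay between 5.16 and 8.65, with 14 of 17 above the reference level and 1 above the 75th percentile. Cd3e, a chain of the T cell receptor complex, read 9.05, 8.45, 8.47 and 8.64, and was that 1 member. Cd3g, another of its chains, read 7.97, 6.84, 7.13 and 7.52. The coreceptor chains Cd8a and Cd8b1 read 7.31, 6.73, 6.69 and 6.68 and 7.19, 6.63, 6.82 and 6.90, and Cd4, which macrophages can also carry, 5.99, 6.05, 5.94 and 6.23. Foxp3, the factor of regulatory T cells, averaged 5.98, Pdcd1, the checkpoint receptor PD-1, 6.77, and Ctla4 was below the reference level at 5.17. Tumor 1 was highest for 8 of the 17 measured genes and tumor 4 for 7, against 21.0% and 24.8% of all genes. Tumor 2 was lowest for 8 of the 17, against 23.3% of all genes. The list means over all 17 were 6.38, 6.17, 6.24 and 6.31.

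Genes of cytotoxic lymphocytes varied widely between the tumors, and tumor 2 was low. Of the 19 measured members, 7 had an SD over 0.5, against 0.346% of all genes. Gzmd, Gzmf and Gzme, granzymes of killer lymphocytes, read 9.74, 7.50, 9.47 and 9.33, then 9.31, 7.21, 8.92 and 8.67, and 8.86, 6.82, 8.37 and 8.42. Gzmb, the main granzyme that induces cell death, read 9.02, 7.32, 9.06 and 8.43. In each of these genes tumor 2 was the lowest by more than 1.0, and the ranges were 4.70-fold, 4.29-fold, 4.13-fold and 3.34-fold. Prf1, perforin, which lets granzymes enter a target cell, read 8.38, 7.12, 8.22 and 8.12, Gzmc read 8.60, 7.03, 8.31 and 8.36, Gzmg read 9.91, 8.27, 9.90 and 9.77, and Nkg7, a granule membrane protein, 9.10, 7.85, 8.46 and 8.29. The interleukin 2 receptor chain Il2rb read 8.48, 7.38, 7.81 and 7.84. Over the 19 measured members the lowest value was in tumor 2 for 11 and the highest in tumor 1 for 13, where 23.3% and 21.0% of all genes had theirs. The list means over all 19 were 7.12, 6.30, 6.89 and 6.77. Granzymes C to G are close copies of each other in the mouse, so their probe sets may share signal and do not count as independent genes. Ncr1, the receptor that defines NK cells, was below the reference level in all tumors, at 5.12, 4.97, 5.06 and 5.02, and so were Klrb1c and Gzma, at means of 4.53 and 5.12. Ccl5, a chemokine of activated T and NK cells, read 8.96, 8.63, 8.51 and 8.57. Of the general leukocyte genes, tumor 2 was lowest for 4 of 12, against 28.2% of genes above the reference level in at least 1 tumor.

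B cell genes were weak, with 5 of 12 measured members above the reference level and none above the 75th percentile. Cd79a and Cd79b, the signalling chains of the B cell receptor, read 4.66, 4.73, 4.76 and 5.69 and 5.81, 5.91, 5.87 and 6.58. Ms4a1, the antigen CD20, stayed below the reference level, at 4.63, 4.56, 4.54 and 5.09. Cd22, an inhibitory receptor, averaged 6.74, and Bank1, an adaptor, 6.32. Tumor 4 was highest for 11 of the 12, against 24.8% of all genes. The plasma cell genes Jchain and Mzb1 were below the reference level, at 4.91 and 5.24. Of 6 lymph node genes, 3 were highest in tumor 4 and 3 in tumor 2, where 24.8% and 33.7% of all genes were. Glycam1, a ligand for L-selectin made by the high endothelial venules of lymph nodes and by lactating mammary epithelium, read 4.72, 4.73, 4.79 and 8.33. Cxcl13, the chemokine that attracts B cells into follicles, read 4.87, 4.97, 4.95 and 5.79. Both genes were above the reference level in tumor 4 alone. Madcam1, an adhesion molecule of mucosal venules, averaged 5.92 with an SD of 0.089. It counted as highest in tumor 4, but its value there, 5.9951, was nearly level with the 5.9861 of tumor 2. Ccl19, a chemokine of T cell zones, read 9.01, 9.18, 8.63 and 9.05 (mean 8.97, or 6.68 by the median over its probe sets). Ltb, the lymphotoxin chain that acts in lymph node formation, was lowest in tumor 4, at 6.79, 6.81, 6.70 and 6.62, and Fcamr, a receptor for immunoglobulins A and M, averaged 5.02.

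Skin and hair genes held the largest SDs, and again tumor 4 was high. Krtap7-1, a keratin-associated protein of the hair shaft, read 5.45, 5.47, 5.40 and 10.43, a 32.7-fold range. Krtap8-1 read 5.18, 5.26, 5.20 and 9.29, Krt33a, a hair keratin, 5.55, 5.71, 5.72 and 7.64, and Krt71, a keratin of the inner root sheath, 5.31, 5.47, 5.48 and 7.23. In tumors 1 to 3 these genes lay between 5.18 and 5.72, around the reference level. Krtap15, Krtap3-1 and Krtap3-3 were further members of the hair shaft family among the 25 named genes with the largest SDs. Of 44 measured Krtap genes, 39 were highest in tumor 4, where 24.8% of all genes were. In tumor 4, 28 lay above the reference level, and in tumors 1, 2 and 3 the counts were 13, 18 and 14. Epidermal genes followed the same pattern at lower levels. Krt10 and Krt1, the keratin pair of the upper epidermis, read 6.07, 6.31, 6.14 and 7.29 and 5.61, 5.74, 5.67 and 6.63, and Lor, loricrin of the cornified layer, was above the reference level in tumor 4 alone, at 4.97, 5.14, 4.86 and 5.70. All 8 measured epidermal genes were highest in tumor 4. Sprr1a, a protein of the cornified envelope, read 5.92, 6.08, 5.90 and 8.46, and Dapl1, a gene of differentiating epithelium, 5.00, 4.95, 4.93 and 6.51.

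**Figure D2:**
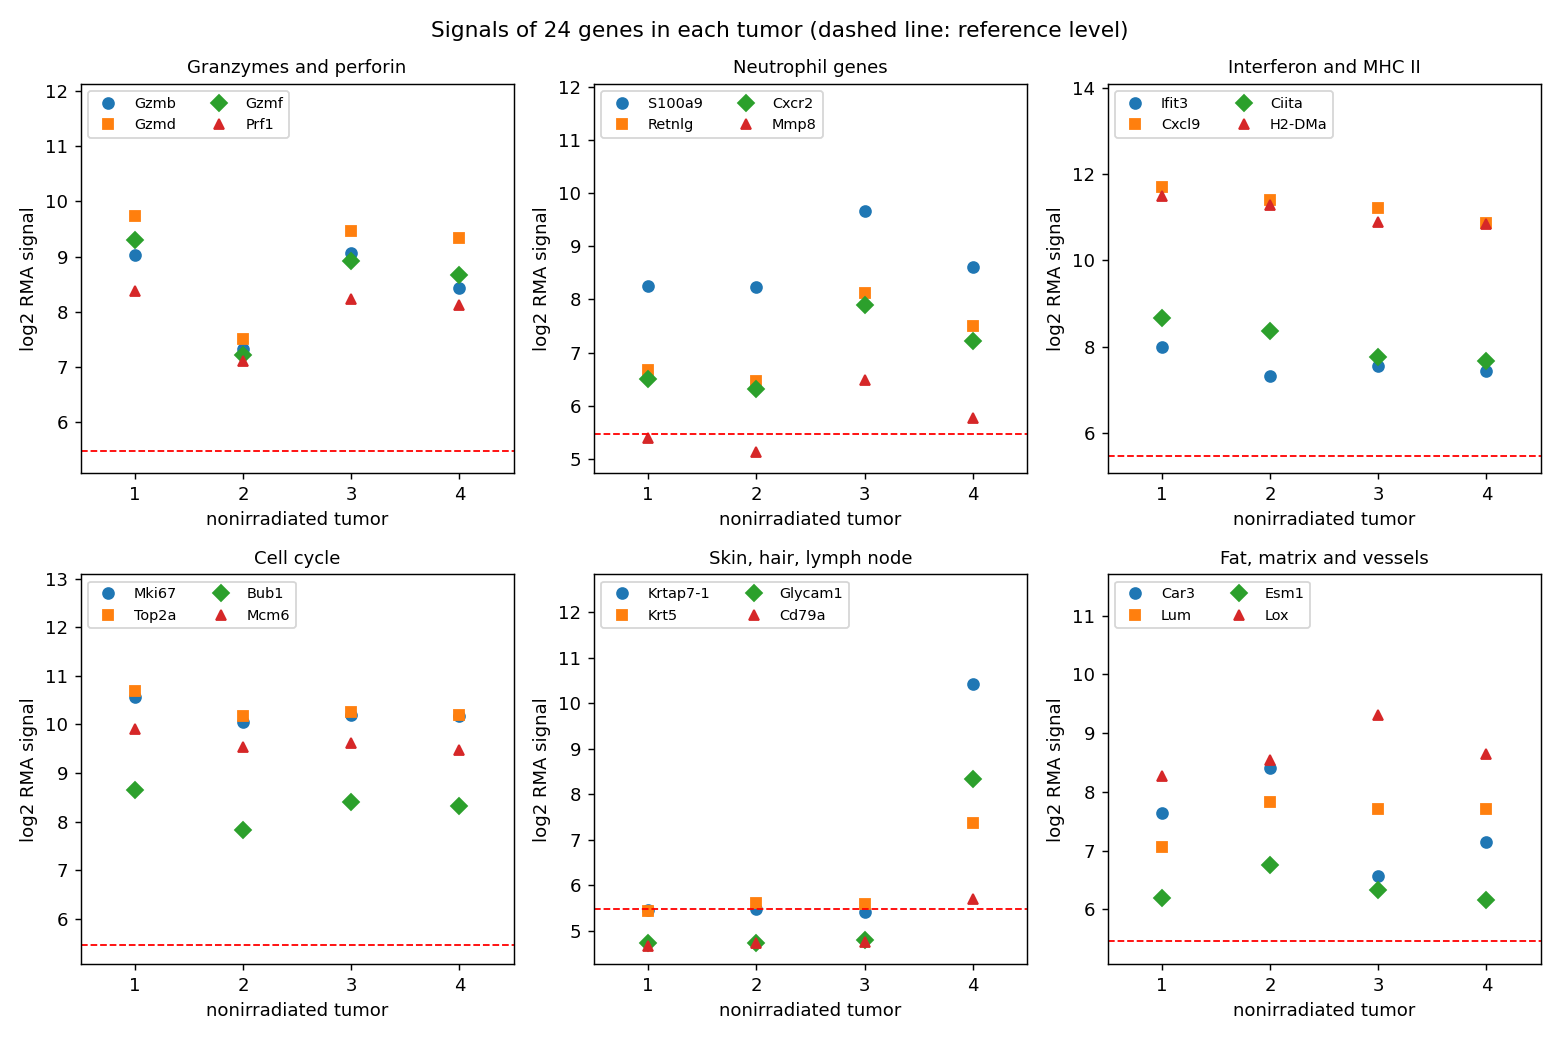
Log2 RMA signals (vertical axes) of 24 genes in each of the 4 nonirradiated tumors (horizontal axes), with 1 marker per gene and the reference level of 5.47 as a dashed line. Granzymes and Prf1 are lowest in tumor 2, neutrophil genes are highest in tumor 3, cell cycle genes are highest in tumor 1, and Krtap7-1 (10.43) and Glycam1 (8.33) lie well above the dashed line in tumor 4 alone.

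Antigen presentation and interferon response genes had high signals. Cd74, the chaperone of MHC class II, read 12.46, 12.26, 12.02 and 12.11, H2-Aa, a class II chain, 11.66, 11.50, 11.10 and 11.25, and H2-Ab1, its partner, 10.83, 10.53, 10.19 and 10.21. Ciita, the master regulator of class II genes, read 8.68, 8.36, 7.77 and 7.67, with an SD of 0.48. Tumor 1 was highest for 6 of the 7 measured class II genes, against 25.1% of genes above the reference level in at least 1 tumor, and the list mean was 0.40 above that of the others. B2m, the light chain of MHC class I, read 12.61, 12.34, 12.34 and 12.43, and the immunoproteasome subunit Psmb9 10.08, 9.76, 9.72 and 9.38. H2-K1 and H2-D1 were listed as class I genes but were not measured. All 7 measured class I genes were highest in tumor 1, with Tap1 and Tap2, the peptide transporter, at 10.80 and 9.78 there. Of the 7, 6 were lowest in tumor 4, against 22.5% of genes above the reference level in at least 1 tumor. Cells of the tumor and leukocytes both make class I, so these values do not separate them.

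Genes that respond to interferon gamma varied in the same direction. Cxcl9, a chemokine for activated T cells, read 11.69, 11.40, 11.21 and 10.85, and Cxcl10, a related chemokine, 10.65, 10.25, 10.36 and 9.53. The guanylate-binding protein Gbp3 read 10.04, 9.48, 9.77 and 9.27, the GTPase Iigp1 9.58, 8.94, 9.17 and 8.81, and Cd274, the checkpoint ligand PD-L1, 9.48, 8.96, 9.51 and 9.07. Irf1, an early interferon-induced transcription factor, averaged 10.51 ± 0.17 by its brightest probe set and 8.21 by the median over its probe sets. Tumor 1 was highest for 9 of 11 genes and tumor 4 lowest for 9 of 11, against 25.1% and 22.5% of genes above the reference level in at least 1 tumor. The list means were 9.57, 9.17, 9.33 and 8.94. Ifng itself, the cytokine, was close to the reference level at 6.06, 5.71, 5.82 and 5.60. In the type I interferon list 19 of 20 genes were above the reference level, and tumor 1 was highest for 15 of the 20, against 21.0% of all genes. Ifit3, an inhibitor of viral translation, read 7.99, 7.33, 7.56 and 7.43, Ifit1 7.35, 6.83, 7.39 and 6.88, and Cmpk2, a nucleotide kinase, 7.48, 6.77, 7.07 and 6.77. Oasl2, an antiviral protein of the oligoadenylate synthetase family, averaged 10.39 ± 0.11, Stat2 9.63 and Zbp1, a sensor of Z-form nucleic acids, 9.62. The lowest value was in tumor 2 for 12 members and in tumor 4 for 8, against 23.3% and 22.3% of all genes. Rsad2, viperin, read 7.50, 6.92, 7.48 and 7.25. Mx1, an antiviral GTPase, averaged 5.69, and Mx2 was below the reference level at 4.94.

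Promoters of 3 of these genes are shown, of which Ifit3 and Rsad2 were highest in tumor 1 and Ifit1 in tumor 3. Interferon-stimulated genes are known to be switched on through the interferon-stimulated response element. Its core was searched as GAAA, any 2 bases and GAAA again, or as TTTC, any 2 bases and TTTC for the other strand. The sequences are from RefSeq on GRCm38.p6, from 170 bases before to 71 bases before the start of the gene, written 5′ to 3′ on the strand of the gene, with matches to the core in capitals. Ifit1 lies at chr19:34640719-34640818 on the plus strand, Ifit3 at chr19:34583359-34583458 on the plus strand and Rsad2 at chr12:26456523-26456622 on the minus strand.
Ifit1: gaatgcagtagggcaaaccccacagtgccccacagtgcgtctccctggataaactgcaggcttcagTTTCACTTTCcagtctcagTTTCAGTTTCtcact
Ifit3: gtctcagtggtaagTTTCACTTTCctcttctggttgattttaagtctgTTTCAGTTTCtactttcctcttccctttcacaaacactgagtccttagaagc
Rsad2: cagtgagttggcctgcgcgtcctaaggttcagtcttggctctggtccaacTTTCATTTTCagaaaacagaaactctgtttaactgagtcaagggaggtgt
Ifit1 held 2 matches, which start 104 and 85 bases before the start of the gene, Ifit3 held 2, at 156 and 122 bases, and Rsad2 held 1, at 120 bases. All 5 are in the TTTC orientation. Among the 20 measured genes of the type I interferon list 14 had a window of 300 bases in the table, from 250 before to 50 after the start, and 8 of them (57.1%) held the core on either strand, against 1079 of 27025 genes (3.99%) of the whole table. Matches can overlap each other, and a match describes the letters only. Whether matches go with the tumor in which a gene is highest was not tested.

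**Figure D3:**
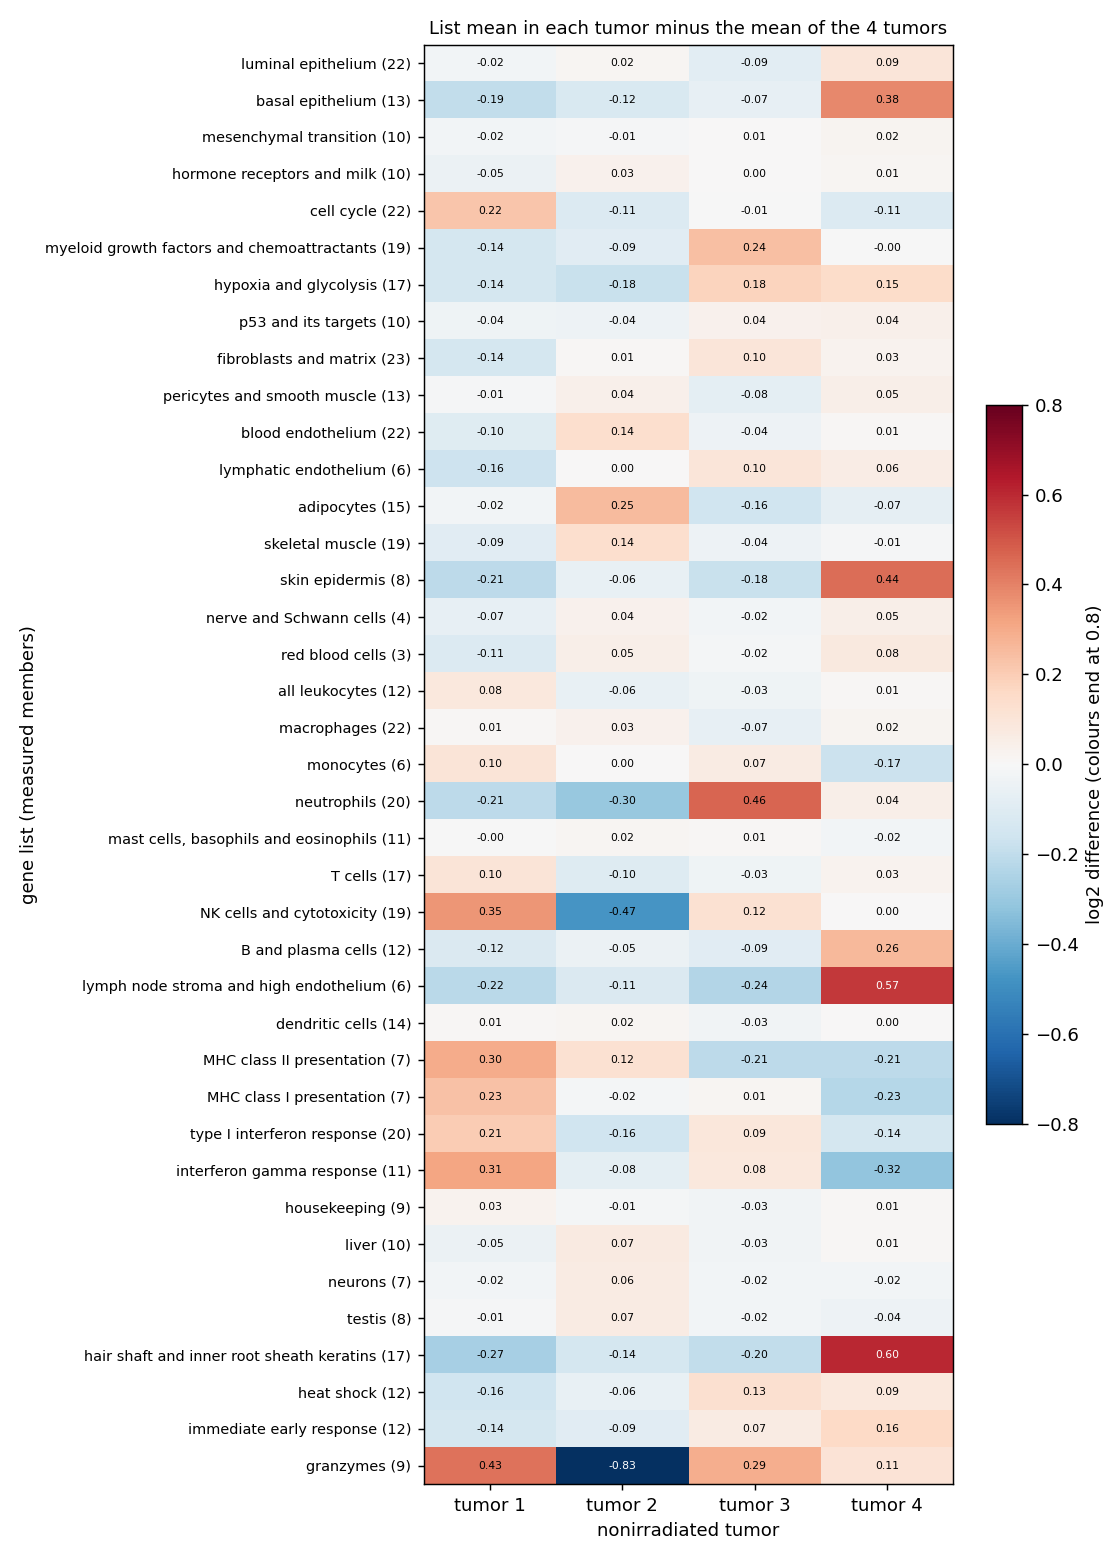
Mean log2 signal of all measured members of each gene list (rows, with their number) in each tumor (columns), minus the mean of the 4 tumors, with the difference written in each cell and colours that end at 0.8. Tumor 2 stands at -0.83 for granzymes and -0.47 for the NK and cytotoxicity list, which also holds granzymes. Tumor 3 stands at 0.46 for neutrophils, and tumor 1 at 0.31 for interferon gamma genes and 0.22 for the cell cycle. Tumor 4 stands at 0.60 for hair keratins and 0.57 for lymph node genes. The granzyme and hair keratin lists were added after the values were seen.

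The spread over all genes was narrow and was carried by few genes. In 6.04% of genes above the reference level in at least 1 tumor, 1 tumor stood apart from the other 3 by Dixon's ratio, the gap to the nearest tumor divided by the range. Of 69 genes with an SD over 0.5, 34 were highest in tumor 4, 17 in tumor 3, 12 in tumor 1 and 6 in tumor 2. Of all genes above the reference level in at least 1 tumor, these shares were 26.3%, 20.0%, 25.1% and 28.7%. The lowest values were in tumor 1 for 31, tumor 2 for 18, tumor 3 for 10 and tumor 4 for 10. The shares here were 32.5%, 28.2%, 16.8% and 22.5%. By family, 11 of the 69 were Krtap genes, 9 were keratins and 6 were granzymes. Without tumor 4, 46 genes had an SD over 0.5, of which 34 were among the 69. Leaving out Krt and Krtap genes left 49. Pairs of tumors differed by more than 1.0 in 13 genes (tumors 1 and 2) to 49 genes (tumors 1 and 4).

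**Figure D4:**
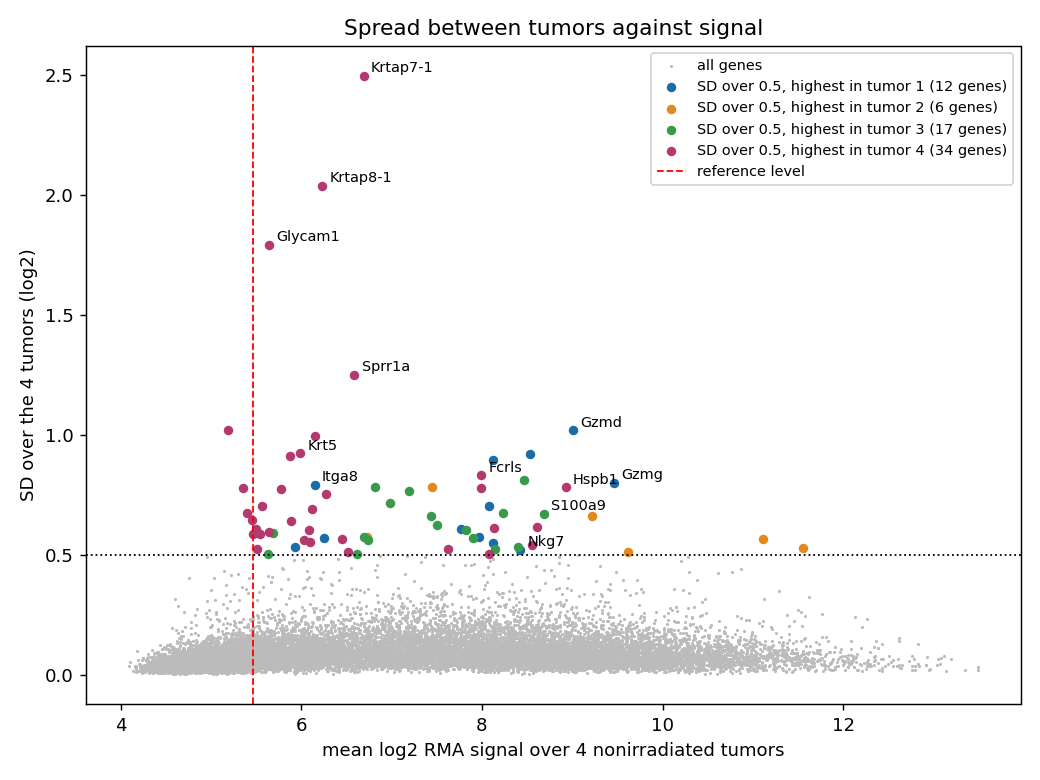
SD over the 4 tumors (vertical axis, log2) against the mean log2 RMA signal (horizontal axis), with 1 point per gene. The 69 genes above an SD of 0.5 and above the reference level in at least 1 tumor are coloured by the tumor in which they were highest, and Krtap7-1 has the largest SD at 2.50.

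Several of the 69 genes fell outside the lists, and those named here without being among the 25 largest SDs were chosen after their values were seen. Itga8, an integrin chain of mesenchymal cells, read 7.31, 5.75, 5.97 and 5.56 and was high in tumor 1. Clec12a, an inhibitory receptor of myeloid cells, read 7.00, 6.37, 5.95 and 5.70, Pdcd1lg2, the checkpoint ligand PD-L2, 6.70, 5.84, 5.69 and 5.49, and Dnase1l3, a nuclease secreted by dendritic cells and macrophages, 8.64, 7.72, 7.48 and 7.25. These genes shared a highest value in tumor 1 and a lowest in tumor 4. Hspb1 and Hspa1a, stress-inducible chaperones, read 7.90, 8.75, 9.45 and 9.61 and 7.45, 7.83, 8.43 and 8.81. Both were highest in tumor 4 and lowest in tumor 1. Of 12 measured heat shock genes, a list added after the values were seen, 4 were highest in tumor 4 and 5 lowest in tumor 1, where 26.3% and 32.5% of genes above the reference level in at least 1 tumor were. Hmox1, heme oxygenase, was highest in tumor 3, at 9.35, 9.64, 10.28 and 9.61. Hspa8 read 12.85, 12.78, 12.78 and 12.77, Hsp90aa1 11.67, 11.68, 11.71 and 11.69 and Dnajb1 7.90, 7.96, 7.92 and 8.04. Per1, a clock gene that also responds to glucocorticoids, read 8.16, 8.42, 8.34 and 9.51, and Dusp1, an early-response phosphatase, 8.53, 8.58, 9.26 and 9.42, while Fos, a classical early gene, read 6.86, 6.85, 6.93 and 6.88. Of 51 measured small nucleolar RNA genes, 21 were highest in tumor 2 and 27 lowest in tumor 4, where 33.7% and 22.3% of all genes were. Snord118, Snora3 and Snora33, which guide the maturation or modification of ribosomal RNA, read 11.20, 11.88, 10.72 and 10.64, then 11.84, 12.13, 11.29 and 10.97, and 9.81, 10.22, 9.41 and 9.04. These 3 genes were highest in tumor 2 and lowest in tumor 4.

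**Figure D5:**
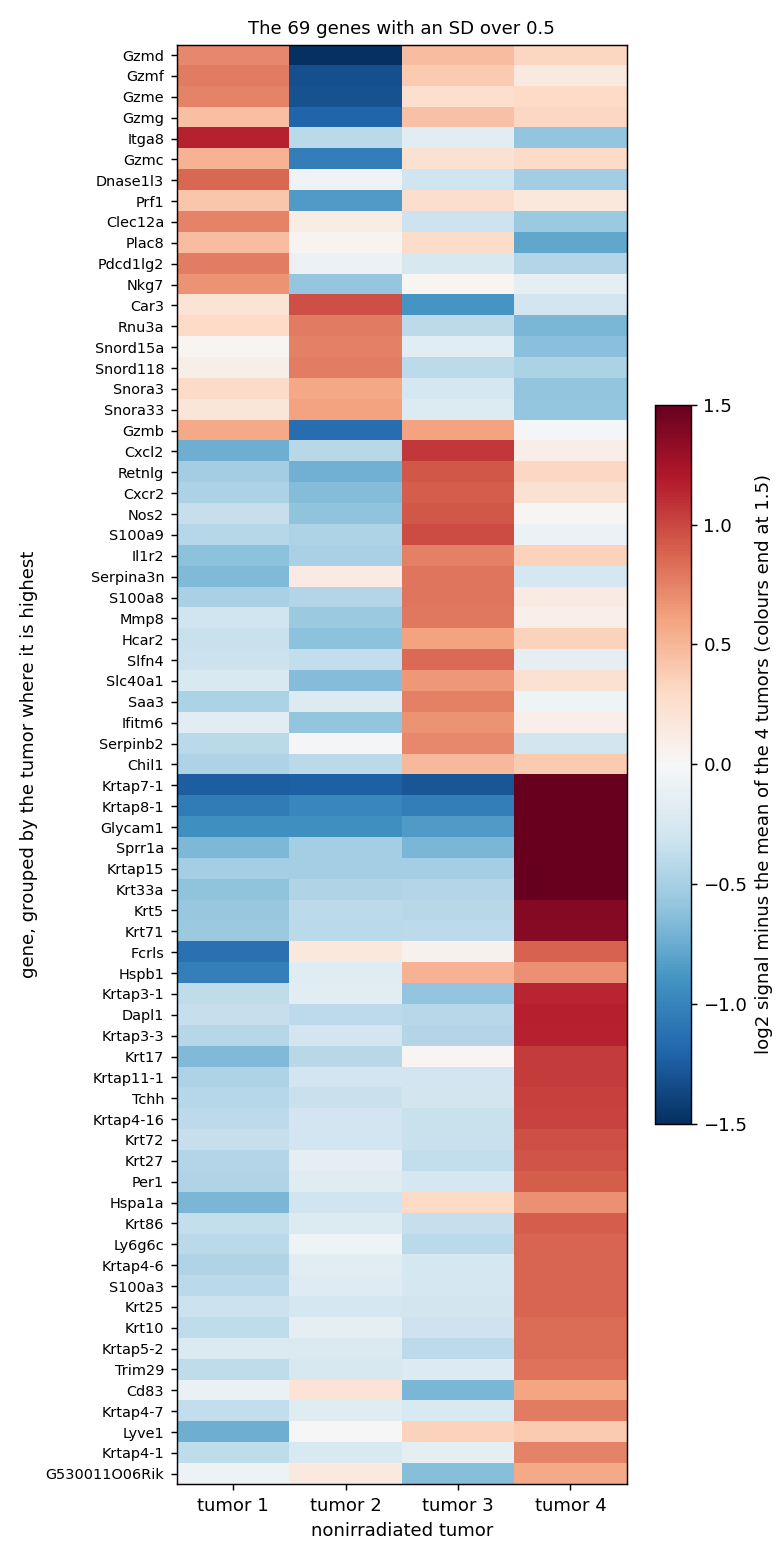
The 69 genes with an SD over 0.5 (rows, grouped by the tumor in which they were highest) in each tumor (columns), coloured by the log2 signal minus the mean of the 4 tumors, with colours that end at 1.5. The lowest block of 34 genes, high in tumor 4, holds the Krtap and hair keratin genes with Glycam1, and the upper block shows the granzymes low in tumor 2.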

How the data were processed

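Total RNA of each tumor was measured on 1 array. The table holds log2 values, 1 per probe set and array, which the authors made by RMA (background correction, quantile normalization, summary of probes) with the affy package of Bioconductor 2.4, per the series' design text, and R 2.15.3, per the submitters' processing notes. The chip description file was not stated. RMA makes arrays alike in distribution, so differences in total RNA cannot be seen, and it understates differences near background.

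Of 34760 probe sets, 21640 list 1 gene symbol in the platform annotation, 1321 several and 11799 none. Each of 19937 genes was read from 1 single-symbol probe set, that of the highest mean on the 8 arrays, and 954 genes had a choice of several. Listed genes without such a probe set were not analysed here.

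No groups were compared. The only test was Dixon's outlier ratio over the 4 tumors, applied to 39 lists and 249 genes. It was also computed for the 14043 genes above the reference level in at least 1 tumor and for the lists over all measured members. Levels, SDs, ranges and counts were computed in Python 3.11.15 with pandas 2.3.3, and the scripts were tested on simulated data. The precision is limited by the 4 arrays. The genes and the 36 lists were chosen with earlier results of these data known, and 4 lists (hair keratins, heat shock, early response, granzymes) were added after the values were seen. The rule for named genes took the 15 with the highest mean, the 25 with the largest and the 5 with the smallest SD. It also took, in each list, the defining genes, the 3 highest and the 3 most variable, and 5 genes from cited titles. Predicted genes, small RNAs, olfactory and vomeronasal receptors and receptor segments were left out of the first 3 choices. Not every gene that the rule took is printed, and the nerve and red blood cell lists are not described gene by gene. Further genes describe a list or fall outside this rule and were chosen after their values were seen. Alternatives covered the reference level, the spread limit, the choice of probe set, normalization, list summaries and leaving out each tumor.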

Additional observations from a re-analysis of the deposited data

Results flagged for a closer look

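For 4 lists and 30 genes of those reported, the highest or lowest tumor stood apart from the other 3, with a gap to the nearest tumor that was a large share of the whole range (Dixon's ratio above its 95% critical value for 4 samples). Chance alone gives such a result in about 1 of 20 groups, and among all genes above the reference level in at least 1 tumor the share was 6.04%. Many of the genes were reported because they vary, so their count is not a result by itself.

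Tumor 4 was the high tumor in most cases. The ratios were 0.996 for Krtap15, 0.986 for Krtap7-1, 0.982 for Krtap8-1, 0.907 for Krtap3-3, 0.919 for Krt33a, 0.912 for Krt71, 0.906 for Krt5, 0.872 for Krt1, 0.931 for Sprr1a and 0.956 for Dapl1, all genes of hair or of stratified epithelium, and 0.876 for the hair keratin list, which was added after the values were seen. For lymph node and B cell genes they were 0.982 for Glycam1, 0.887 for Cxcl13, 0.906 for Cd79a, 0.876 for Cd79b and 0.848 for Ms4a1, with 0.856 for the lymph node list and 0.879 for the B cell list. These list ratios are over members above the reference level in at least 1 tumor, and some members passed through tumor 4 alone, so a high tumor 4 is partly built in. Over all measured members they were 0.854 (hair keratins), 0.848 (lymph node) and 0.817 (B cells), the last below the critical value. The lymph node ratio rests on Glycam1 and Cxcl13, since 3 of the 6 members were highest in tumor 2. Other genes high in tumor 4 were Ocln (0.909), Sfn (0.844), Itgb4 (0.842) and Fn1 (0.832). Low in tumor 4 were Foxp3 (0.905) and Slpi (0.834).

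Tumor 1 was high for Cd8a (0.926), Cd24a (0.840), Hspa8 (0.839) and Top2a (0.834) and low for Lum (0.842) and for the list of hormone receptors and milk genes (0.831), which was at 0.672 over all measured members. Tumor 2 was high for Adipoq (0.934) and low for Gzmg (0.912). Tumor 3 was high for Ly6g (0.853) and low for Scd1 (0.952). Over all measured members the neuron list, a check, also passed at 0.969, with tumor 2 above the others by 0.085.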

How the results depend on the processing

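No paired analysis was possible because the results come from 1 group and no comparison, although both groups of the series share the replicate numbers of the titles. The number of genes above the reference level (13569) was 11264 with the 99th percentile of the olfactory receptor genes and 11324 with the liver, neuron and testis genes as the reference. The number of genes with an SD over 0.5 (69) lay between 46 and 78 when each tumor was left out in turn, was 91 with a range over 1.0 in place of the SD, and was 49 without Krt and Krtap genes, a setting added after the values were seen.

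With the median in place of the mean of a list's members, the tumor farthest from the others differed from their mean by 0.22 (luminal genes, tumor 4), 1.22 (basal genes, tumor 4), 0.16 (mesenchymal genes, tumor 4), -0.15 (hormone receptors and milk, tumor 1), -0.47 (hypoxia, tumor 2), -0.20 (pericytes, tumor 3), -0.98 (lymphatic endothelium, tumor 1), -0.080 (nerve, tumor 1), 1.04 (neutrophils, tumor 3), 0.024 (T cells, tumor 1) and -0.068 (dendritic cells, tumor 3). The lymphatic value is that of Lyve1 alone, the middle one of the 3 members used. The early response list of tumor 4 turned from above the others to below them, at -0.033. With all measured members the values were -0.088 (nerve, tumor 1) and -0.031 (mast cells, basophils and eosinophils, tumor 4), and with arrays centred on their medians 0.049 (mesenchymal genes, tumor 4). The median over the probe sets of a gene gave list levels of 9.25 (interferon gamma) and 9.70 (heat shock) and moved 13 of the reported gene levels, which holds for genes whose probe sets disagree. Apart from these, the cause was not tested. Genes within the spread of the olfactory receptors give no information on low transcripts.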
